A study of Mus musculus with 6 samples.

Results

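The 46 genes described here encode the mitochondrial carriers of solute carrier family 25 (SLC25), measured by bulk RNA sequencing in RAW264.7 cells, a macrophage-like mouse line. Members were the rows of the deposited count table whose GENCODE M21 gene is protein-coding and whose symbol starts with Slc25a and a number. Of 48 rows with such a symbol among 55401 genes, 1 is a pseudogene with 2 counts in all and 1 gene was left out by the rule. The symbol rule used no measured value, but the family was chosen with earlier results of these data known. The MoS2 group was given molybdenum disulfide, a layered metal sulfide, at 6.25 µg/ml, and the other group was given phosphate-buffered saline (PBS), with 3 libraries in each. Both groups were labelled wild type and grown in DMEM with fetal bovine serum, and both come from a single line. The sources used here do not give how long the treatment lasted. Nor do they say that the replicates came from separate cultures, so each p-value rests on the spread among these samples alone, and that spread may be technical. The title names tumour cell ferroptosis and MoS2, and the comparison asks how carrier transcripts differ between MoS2-treated and PBS-treated cells.

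SLC25 proteins sit mostly in the inner mitochondrial membrane and exchange metabolites between the matrix and the cytosol. They move adenine nucleotides, phosphate, carboxylates, amino acids, fatty acid carnitine esters and cofactors, so that respiration, the urea and citric acid cycles, lipid synthesis and heme synthesis depend on them. In macrophages the citrate carrier is known as a source of cytosolic citrate for lipid and mediator synthesis, and several carriers are known for tying mitochondrial work to calcium or to energy demand.

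Total counts were 15767618 to 18412762 per library in MoS2 cells and 17008020 to 17695883 in PBS cells. Carriers held 0.245% to 0.250% of the counts of the MoS2 libraries and 0.286% to 0.297% of those of the PBS libraries. The 37 mitochondrially encoded genes stand at 0 in every library of the table. Levels are library-scaled read counts (CPM), and levels that are compared between genes are per kilobase of gene length (RPKM), both scaled here with TMM factors. Those factors were 0.743 to 0.783 in MoS2 libraries and 1.31 in each PBS library, so that scaling by library totals alone shifts the log2 fold change of all genes by a median of -0.77. Groups did not overlap for 31 of the 36 carriers tested (86.1%), beside 81.9% of all genes tested. For carriers described singly, the value with library totals is therefore given where it changes a direction or a call. In bulk RNA, fewer cells and less RNA per cell cannot be told apart. All 9 macrophage markers had counts, with a summed level of 4908 to 5188 CPM in MoS2 and 7376 to 7587 CPM in PBS libraries, though Mertk had only 4 counts in all. They did not move alike, since Lyz2 averaged 1976 CPM in MoS2 and 3624 CPM in PBS libraries and Csf1r 513 and 1909 CPM, while Cd68 averaged 1304 CPM in MoS2 and 614 CPM in PBS libraries and Itgam 123 and 44.2 CPM. The other marker lists were at or under 1.13 CPM in every library, with Cd3d, Cd8a, Ms4a1, S100a9, Mpo, Krt18 and Cdh1 at 0, except for the endothelial list, which summed to 3.03 to 3.95 CPM in MoS2 and 11.2 to 12.3 CPM in PBS libraries. Vwf held nearly all of that sum, with 906 counts in all libraries beside 15 of Cdh5 and 5 of Kdr. The part of these markers in the carrier results was not tested.

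The carriers moved in both directions under MoS2. Slc25a25, Slc25a33, Slc25a39 and Slc25a30 had at least 2.11 times the PBS level by TMM and were higher under library totals too. The first 3 carry ATP-Mg and phosphate, pyrimidine nucleotides and glutathione, and Slc25a30 resembles the uncoupling proteins in sequence. Slc25a15, Slc25a36, Slc25a16, Slc25a32, Slc25a23, Slc25a10, Slc25a24 and Slc25a40, carriers of ornithine, pyrimidine nucleotides, cofactors, ATP-Mg, dicarboxylates and glutathione, had at most 0.468 times the PBS level by TMM. Library totals, which move log2 fold changes down, put them lower still. With the trend by gene length and GC content removed, all of these were still called lower. Slc25a10 at -0.67, Slc25a23 at -0.73 and Slc25a40 at -0.83 then had a log2 change under 1 in size. Close relatives that carry the same substrate stood on opposite sides in 3 families, namely the ATP-Mg/phosphate, pyrimidine nucleotide and glutathione carriers. These were singled out after their values were seen, and no background share was computed for such splits. Other carriers that share a substrate did not split with TMM. Slc25a4 and Slc25a5 were both called higher, Slc25a16 and Slc25a42 both lower, and Slc25a12 and Slc25a13 were both not called. Of 36 members that passed the low-count filter, edgeR called 28 (77.8%) at an adjusted p under 0.05, while it called 80.7% of the 12972 genes tested. Called members split into 12 higher, or 33.3% beside 38.3% of all genes, and 16 lower, or 44.4% beside 42.4%. A log2 change of 1 or more in size was called for 14 members (38.9%) beside 43.2% of all genes, 4 higher and 10 lower. These shares lie near the background, so the number of changed carriers is not a result about the family, and what follows is about which carriers changed and in which direction.

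The split depended on the scaling of libraries. With library totals 5 members were called higher (13.9%, beside 18.0% of all genes) and 25 lower (69.4%, beside 67.7%). Higher under both scalings were Slc25a25, Slc25a33, Slc25a39, Slc25a30 and Slc25a5, and lower under both were the same 16 that TMM gave. Library totals move log2 fold changes down, and all 5502 genes that TMM called lower were also called lower with them. The agreement of these 16 was thus fixed by the shift and is no separate check. Of the other 7 members that TMM called higher, 6 were not called with library totals and Slc25a38 was called lower at -0.21. The 8 members that TMM did not call were all called lower with library totals. The median log2 fold change of the 36 members was -0.22 with TMM and -0.999 with library totals, beside -0.08 and -0.850 for all genes tested. With the dependence on gene length and GC content taken out of each library, these medians were 0.04 and 0.12.

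**Figure D1:**
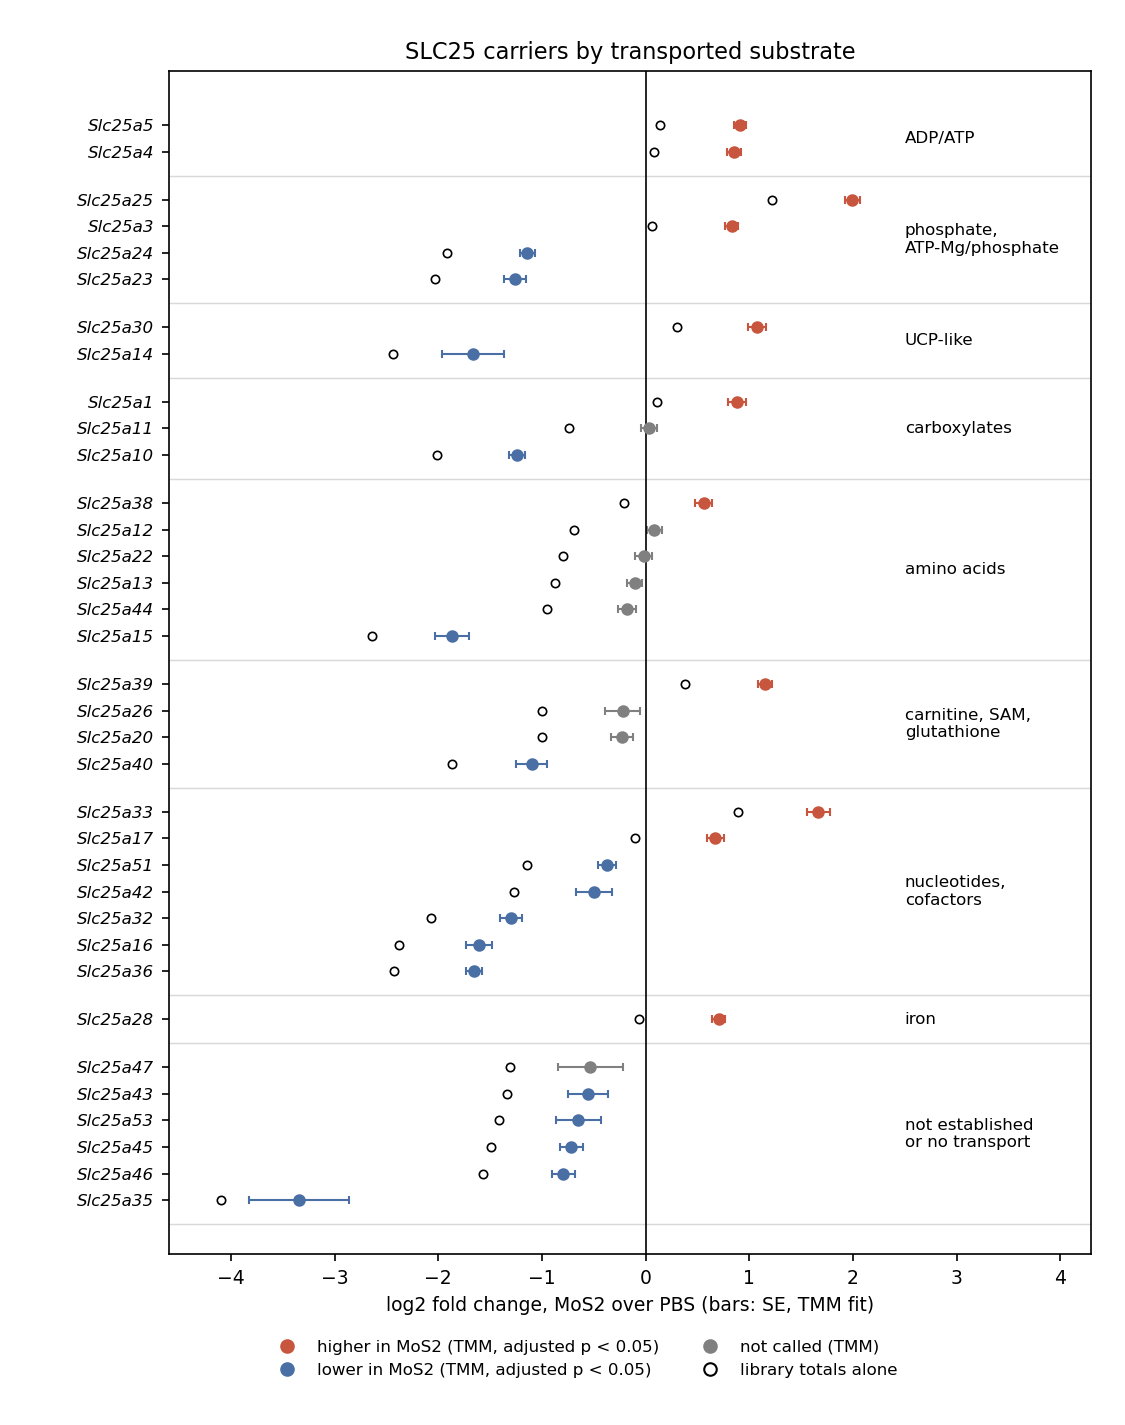
Log2 fold change of the tested carriers, 1 of them not shown (MoS2 over PBS, x axis), grouped down the page by transported substrate; filled points are the TMM fit with bars of 1 SE, coloured by call, and open points are the same fit with library totals alone. Slc25a25 at 2.0 is farthest right and Slc25a35 at -3.35 farthest left, and library totals move every point to the left, so that Slc25a28, Slc25a17, Slc25a38, Slc25a11 and Slc25a12 change sign.

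Per length, the ADP/ATP carrier Slc25a5 stood far above the other carriers in both groups, with 398 ± 13.6 RPKM in MoS2 cells and 211 ± 5.73 RPKM in PBS cells (SD, n = 3 each). It made up 35.9 ± 0.577% of the summed carrier level in MoS2 libraries and 30.0 ± 0.0428% in PBS libraries. In MoS2 cells the glutathione carrier Slc25a39 came next at 166 ± 6.60 RPKM, followed by the phosphate carrier Slc25a3 at 147 ± 4.95, Slc25a4 at 71.7 ± 5.46, the citrate carrier Slc25a1 at 59.0 ± 2.20 and the oxoglutarate carrier Slc25a11 at 42.5 ± 0.774. No neighbours in that order overlapped between libraries. In PBS cells the order was Slc25a3 at 82.8 ± 3.57, Slc25a39 at 74.8 ± 5.07, Slc25a11 at 41.4 ± 4.22, Slc25a4 at 39.8 ± 1.40 and Slc25a1 at 32.02 ± 3.91 RPKM. There the libraries of Slc25a3 and Slc25a39 overlapped, as did those of Slc25a11 and Slc25a4. Slc25a5, Slc25a3, Slc25a39 and Slc25a11 together held 68.0 ± 0.437% of the summed level in MoS2 cells and 58.3 ± 0.917% in PBS cells. Further down, Slc25a33 ranked 8 of 46 in MoS2 and 21 in PBS cells, Slc25a25 ranked 13 and 27, Slc25a24 ranked 15 and 7, and Slc25a23 ranked 22 and 12.

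The ADP/ATP carriers bring ADP into the matrix and release ATP, the last step of oxidative phosphorylation. Slc25a5 (ENSMUSG00000016319.3, GRCm38 chromosome X, 36795651 to 36798807), known as the form of dividing cells, had 672, 629.7 and 664 CPM in MoS2 libraries and 358, 347 and 339 CPM in PBS libraries. Every MoS2 library lay above every PBS library. Its log2 fold change was 0.91 ± 0.06 (SE, edgeR quasi-likelihood adjusted p = 5.1e-09), and 0.14 (adjusted p = 0.031) with library totals. Slc25a4, known as the form of heart and muscle, had a log2 fold change of 0.85 ± 0.07 with TMM and 0.08, not called, with library totals. The ratio of Slc25a4 to Slc25a5 per length, which does not depend on library scaling, was 0.180 ± 0.0141 in MoS2 and 0.188 ± 0.00765 in PBS libraries (SD, n = 3 each). That difference of -0.06 on the log2 scale was within the spread between libraries (exact two-sided permutation p = 0.5, adjusted 0.5 over 2 ratios). With the length and GC trend removed, the log2 fold changes were 0.85 for Slc25a4 and 0.55 for Slc25a5, so that the difference between them turned round, and that difference was not tested. Slc25a31, the testis form, had no count in any library, which allows up to 0.243 CPM in a MoS2 library and 0.135 CPM in a PBS library (3 counts, counting error only). Counts of Slc25a5 could include reads of 3 near-identical pseudogenes, which hold 91 counts beside its 49050.

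Phosphate for ATP synthesis enters through Slc25a3 (ENSMUSG00000061904.12, GRCm38 chromosome 10, 91116574 to 91124059). It had 814, 793 and 848 CPM in MoS2 libraries and 473, 469 and 437 CPM in PBS libraries. The groups did not overlap, and the log2 fold change was 0.83 ± 0.06 (SE, by edgeR, adjusted p = 1.8e-08). With library totals it was 0.06 and not called (adjusted p = 0.33).

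The ATP-Mg/phosphate carriers set the adenine nucleotide content of the matrix and are gated by calcium through their own calcium-binding domain. Slc25a25 (ENSMUSG00000026819.15, GRCm38 chromosome 2, 32414487 to 32451445, minus strand), the carrier with the largest rise, had 108, 107 and 111 CPM in MoS2 libraries and 25.3, 27.8 and 28.7 CPM in PBS libraries. All 3 MoS2 libraries lay above the PBS libraries with little spread in either group. It rose by 2.0 ± 0.07 on the log2 scale (SE, by edgeR, adjusted p = 2.1e-11), and by 1.22 with library totals. The counting may include reads of Naif1, which shares 379 exon bases with it on the opposite strand and has 744 counts in all libraries beside 6052. Because it is the carrier with the largest rise, the 250 bases before its most upstream RefSeq start are shown (GRCm38.p6, chr2:32451471-32451720, minus strand, 5′ to 3′). They hold none of the motifs searched, which are spelled out with the pyrimidine nucleotide carriers. Any other start of the gene was not searched.
Slc25a25: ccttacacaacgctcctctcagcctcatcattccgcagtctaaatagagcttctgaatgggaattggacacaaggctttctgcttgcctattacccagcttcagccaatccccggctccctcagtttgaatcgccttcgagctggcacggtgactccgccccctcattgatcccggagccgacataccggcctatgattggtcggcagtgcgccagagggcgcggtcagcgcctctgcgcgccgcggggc

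The other calcium-gated members went the other way. Slc25a24 (ENSMUSG00000040322.10, GRCm38 chromosome 3, 109123149 to 109168457) had 36.8, 35.1 and 35.3 CPM in MoS2 libraries and 80.2, 76.9 and 79.4 CPM in PBS libraries. Slc25a23 (ENSMUSG00000046329.14, GRCm38 chromosome 17, 57043711 to 57059863) had 23.7, 27.6 and 27.6 CPM in MoS2 libraries and 53.6, 67.8 and 67.9 CPM in PBS libraries. In both genes the MoS2 libraries were all below the PBS libraries, and PBS replicate 1 was the lowest PBS library of Slc25a23. Slc25a24 fell by 1.14 ± 0.07 on the log2 scale (SE, by edgeR, adjusted p = 2.7e-09). The fall of Slc25a23 was -1.26 ± 0.10 (adjusted p = 6.6e-08). Per length, Slc25a25 made up 47.4%, 46.9% and 47.6% of the 3 genes' summed level in MoS2 libraries and 8.76%, 9.12% and 9.21% in PBS libraries. Slc25a24 was the most abundant of the 3 in PBS cells, where it held 60.0 ± 3.21% of that sum beside 35.7 ± 1.25% in MoS2 cells (SD, n = 3 each). Their summed level was 29.2 ± 0.365 RPKM in MoS2 and 38.4 ± 1.48 RPKM in PBS cells. The ratio of Slc25a25 to Slc25a24 was 1.33 ± 0.0467 in MoS2 and 0.151 ± 0.0116 in PBS libraries, an 8.81-fold difference, and that of Slc25a25 to Slc25a23 was 2.80 ± 0.232 and 0.293 ± 0.0219, a 9.56-fold difference. These ratios are independent of library scaling but were chosen after their values were seen, so they have no test. Slc25a41, a relative without the calcium-binding domain, had 1 count in MoS2 and 4 in PBS libraries in all and was not tested.

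**Figure D2:**
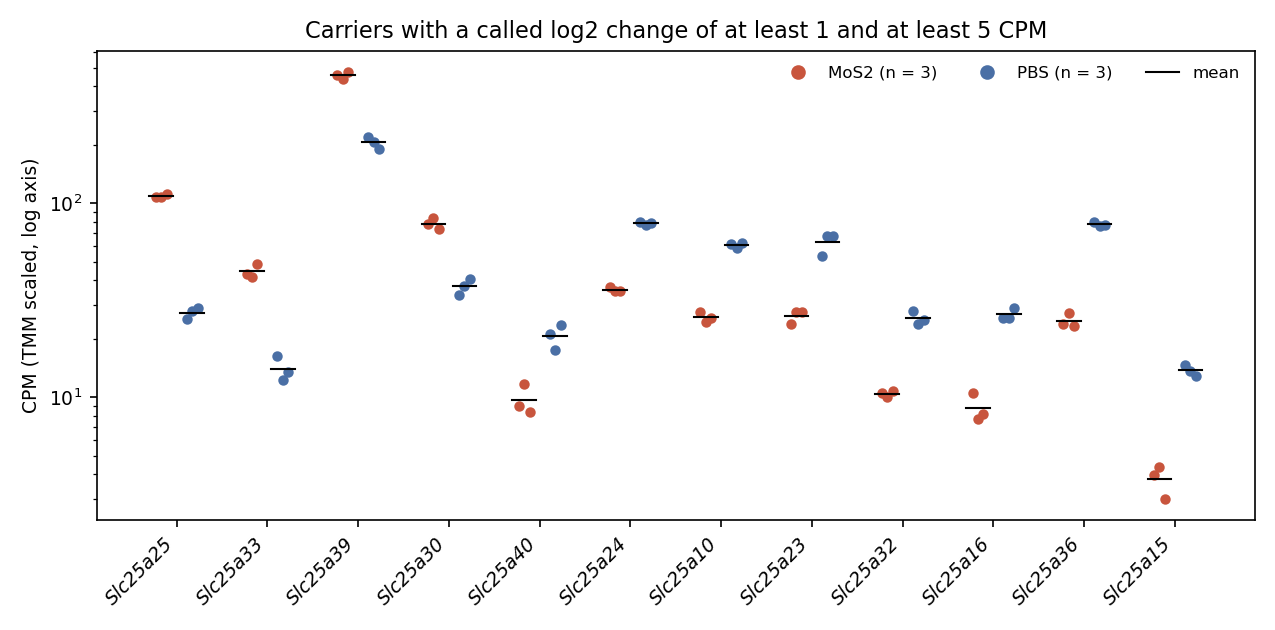
TMM-scaled CPM of each library (log axis) for the 12 carriers with a called log2 change of at least 1 in size and a mean of at least 5 CPM in a group, MoS2 left of PBS; points are libraries (n = 3 each) and lines are means. In the 4 genes at the left the MoS2 libraries lie above all PBS libraries, and in the 8 at the right below them.

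The uncoupling-protein-like carriers resemble the uncoupling proteins in sequence. Slc25a30 (ENSMUSG00000022003.7, GRCm38 chromosome 14, 75760117 to 75787037), first described in kidney, had 78.2, 83.9 and 73.7 CPM in MoS2 libraries and 33.7, 37.6 and 40.6 CPM in PBS libraries. The groups were well apart, with a log2 fold change of 1.07 ± 0.08 (SE, by edgeR, adjusted p = 3.8e-08) and 0.30 (adjusted p = 0.0070) with library totals. Slc25a14, best known from brain, was sparse, with 41 counts in all MoS2 and 232 in all PBS libraries, and a log2 fold change of -1.67 ± 0.30 (adjusted p = 0.00016). With 8 counts in MoS2 replicate 1, it met the low-count filter only with PBS libraries counted. Slc25a27, a brain form, had no count.

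Among the carboxylate carriers, Slc25a1 (ENSMUSG00000003528.15, GRCm38 chromosome 16, 17925223 to 17928219) exports citrate for fatty acid and sterol synthesis. It had 132, 123 and 128 CPM in MoS2 libraries and 79.0, 65.0 and 63.8 CPM in PBS libraries. The groups did not overlap, and PBS replicate 1 was the highest PBS library. The log2 fold change was 0.88 ± 0.08 (SE, by edgeR, adjusted p = 2.6e-07), but 0.11 and not called with library totals (adjusted p = 0.24). Slc25a10 (ENSMUSG00000025792.9, GRCm38 chromosome 11, 120491840 to 120499187), which exchanges malate or succinate for phosphate, had 27.4, 24.4 and 25.5 CPM in MoS2 libraries and 61.8, 58.5 and 62.6 CPM in PBS libraries. It was lower in each MoS2 library, with a log2 fold change of -1.24 ± 0.08 (adjusted p = 4.1e-09). Slc25a11, the oxoglutarate/malate carrier of the malate-aspartate shuttle, overlapped between groups at a log2 fold change of 0.04 ± 0.08 (adjusted p = 0.67), but was called lower with library totals at -0.74. It shares 189 exon bases with Rnf167 on the opposite strand. Per length, the ratio of Slc25a1 to Slc25a10 was 7.92 ± 0.172 in MoS2 and 1.81 ± 0.210 in PBS libraries (SD, n = 3 each), a 4.38-fold difference, again chosen after its values were seen and not tested. Slc25a21, the oxoadipate carrier, had 2 counts in all MoS2 libraries and none in PBS libraries.

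Of the 10 members grouped as amino acid carriers 6 were tested, and 4 of these were not called. The aspartate/glutamate carriers Slc25a12 and Slc25a13, calcium-gated parts of the malate-aspartate shuttle, had changes of 0.09 ± 0.07 and -0.10 ± 0.07 on the log2 scale, and the glutamate carrier Slc25a22 had one of -0.02 ± 0.08. None of the 3 was called with TMM, and with library totals all were called lower, between -0.69 and -0.88. With the length and GC trend removed, Slc25a12 at 0.39 (adjusted p = 6.4e-05) and Slc25a22 at 0.58 (adjusted p = 4.5e-06) were called higher, and Slc25a13 at 0.08 was not called. The ratio of Slc25a12 to Slc25a13 per length was 0.777 ± 0.0506 in MoS2 and 0.682 ± 0.0237 in PBS libraries, with each MoS2 library above each PBS library. That gave an exact two-sided permutation p of 0.1 (n = 3 each), the smallest that 3 against 3 libraries allow, and 0.2 adjusted over 2 ratios. Slc25a44 (ENSMUSG00000050144.13, GRCm38 chromosome 3, 88410498 to 88425139), a carrier of branched-chain amino acids and the most abundant of the group per length, had 58.9, 64.4 and 55.4 CPM in MoS2 libraries and 62.0, 74.9 and 65.6 CPM in PBS libraries. The groups overlapped, and the difference of -0.18 ± 0.09 did not pass the test (SE, by edgeR, adjusted p = 0.068). It was called without MoS2 replicate 2 (adjusted p = 0.039), without PBS replicate 1 (adjusted p = 0.017) and, at -0.95, with library totals. Upper-quartile factors (-0.31, adjusted p = 0.0042) and no low-count filter (-0.26, adjusted p = 0.0047) also gave a call. It was 0.15 and not called with the length and GC trend removed.

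Slc25a15 (ENSMUSG00000031482.9, GRCm38 chromosome 8, 22375551 to 22398597) exchanges ornithine and citrulline across the inner membrane for the urea cycle. It had 3.99, 4.38 and 3.0 CPM in MoS2 libraries and 14.7, 13.7 and 12.9 CPM in PBS libraries, on 145 counts in all MoS2 and 943 in all PBS libraries. The MoS2 libraries lay far below the PBS libraries, with a log2 fold change of -1.87 ± 0.16 (SE, by edgeR, adjusted p = 9.5e-08). Slc25a38 imports glycine for the first step of heme synthesis, and its log2 fold change was 0.56 ± 0.08 (adjusted p = 2.3e-05) with TMM but -0.21 (adjusted p = 0.030) with library totals. The remaining members of this group were too sparse to test. Slc25a18, a second glutamate carrier, had 8 counts in MoS2 and 28 in PBS libraries, and Slc25a2, a second ornithine carrier, had 20 in MoS2, of which 13 in replicate 3, and 7 in PBS libraries. Slc25a29, a carrier of basic amino acids, had 7 and 8. Slc25a48, placed here when the groups were drawn up though since tied to another substrate, had 2 and none.

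Glutathione reaches the matrix through Slc25a39 and its paralog Slc25a40, an import on which antioxidant defence and iron-sulfur proteins of the matrix depend. Slc25a39 (ENSMUSG00000018677.9, GRCm38 chromosome 11, 102402985 to 102407946) had 459.8, 438 and 474 CPM in MoS2 libraries and 219, 208 and 191 CPM in PBS libraries. Each MoS2 library had more than the highest PBS library by a wide margin, at a log2 fold change of 1.15 ± 0.07 (SE, by edgeR, adjusted p = 1.7e-09) and 0.38 (adjusted p = 8.1e-05) with library totals. Slc25a40 (ENSMUSG00000054099.11, GRCm38 chromosome 5, 8422850 to 8454797) had 9.02, 11.8 and 8.41 CPM in MoS2 libraries and 21.2, 17.5 and 23.6 CPM in PBS libraries. It was lower in every MoS2 library, by a log2 fold change of -1.10 ± 0.15 (adjusted p = 1.1e-05). Per length, the ratio of Slc25a39 to Slc25a40 was 155, 113 and 172 in MoS2 libraries and 31.4, 36.2 and 24.7 in PBS libraries, a 4.76-fold difference of the means on the log scale that was chosen after its values were seen. The carnitine/acylcarnitine carrier Slc25a20, which brings fatty acids to beta-oxidation, did not pass the test at -0.23 ± 0.10 (adjusted p = 0.053), although its groups did not overlap. It was called without MoS2 replicate 3 (adjusted p = 0.024) and without PBS replicate 3 (adjusted p = 0.046). The S-adenosylmethionine carrier Slc25a26, which supplies mitochondrial methylation, had -0.22 ± 0.17 and overlapping groups. With library totals Slc25a20 and Slc25a26 were at -1.002 and -0.996 and called lower.

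**Figure D3:**
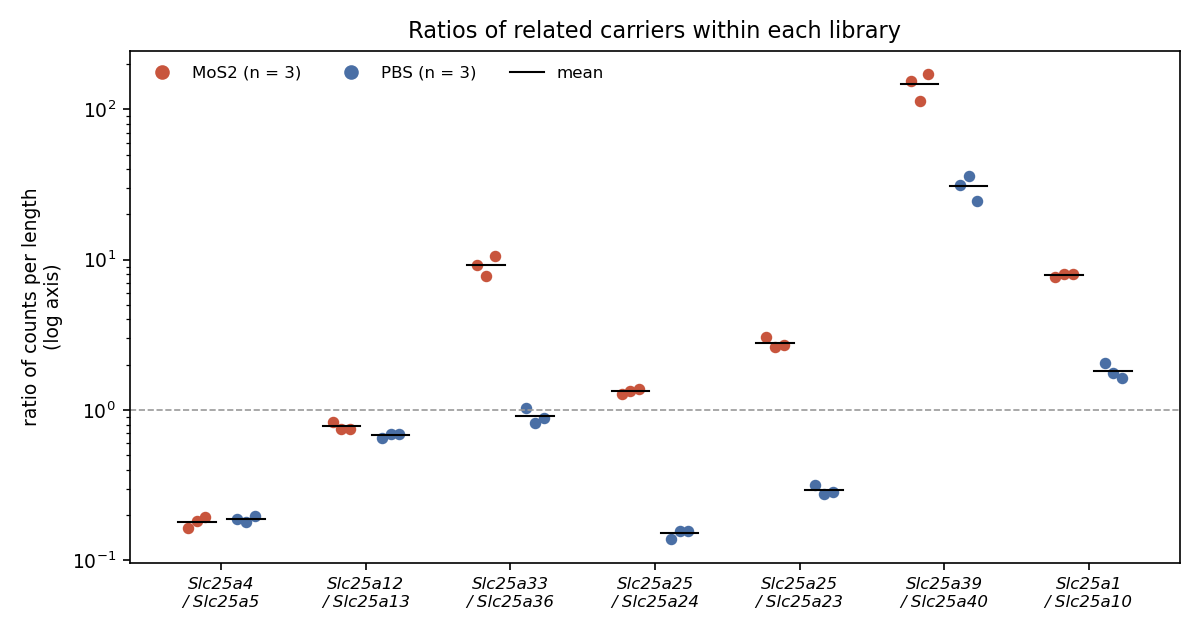
Ratio of related carriers per length within each library (log axis), MoS2 left of PBS; points are libraries (n = 3 each), lines are means and the dashed line marks equal levels. The ratio of Slc25a33 to Slc25a36 lies between 7.82 and 10.6 in MoS2 libraries and between 0.813 and 1.04 in PBS libraries, while that of Slc25a4 to Slc25a5 overlaps between groups.

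Pyrimidine nucleotides for mitochondrial DNA and RNA synthesis are carried by Slc25a33 and Slc25a36, and these relatives moved in opposite directions. Slc25a33 (ENSMUSG00000028982.9, GRCm38 chromosome 4, 149744036 to 149774277, minus strand), known from human cells as induced by insulin-like growth factor, had 43.3, 41.7 and 48.8 CPM in MoS2 libraries and 16.4, 12.2 and 13.5 CPM in PBS libraries. Slc25a36 (ENSMUSG00000032449.13, GRCm38 chromosome 9, 97074961 to 97111157, minus strand) had 23.9, 27.2 and 23.3 CPM in MoS2 libraries and 80.3, 76.3 and 77.2 CPM in PBS libraries. For both genes the groups lay far apart. Slc25a33 had a log2 fold change of 1.67 ± 0.11 (SE, by edgeR, adjusted p = 7.7e-09), or 0.89 with library totals, and Slc25a36 had -1.65 ± 0.08 (adjusted p = 2.8e-10). Their ratio per length was 9.22 ± 1.41 in MoS2 and 0.914 ± 0.114 in PBS libraries (SD, n = 3 each), a 10.1-fold difference with no test, since the pair was chosen after its values were seen. Their summed level was 26.2 ± 1.80 RPKM in MoS2 and 15.6 ± 1.35 RPKM in PBS cells. Slc25a33 shares 281 exon bases, 14.9% of its exons, with the gene model Gm13068 on the opposite strand, which has 88 counts in all libraries beside 2684.

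Because this pair moved apart, the 250 bases before the most upstream RefSeq start of each gene are shown (GRCm38.p6, both on the minus strand, 5′ to 3′). They are from chr4:149774268-149774517 for Slc25a33 and from chr9:97111042-97111291 for Slc25a36. Capitals mark matches to the motifs searched on both strands, which were the CRE (TGACGTCA), the ATF4 composite element (TGATGNAA), the E-box (CACGTG) and the GABP site (CCGGAAGT).
Slc25a33: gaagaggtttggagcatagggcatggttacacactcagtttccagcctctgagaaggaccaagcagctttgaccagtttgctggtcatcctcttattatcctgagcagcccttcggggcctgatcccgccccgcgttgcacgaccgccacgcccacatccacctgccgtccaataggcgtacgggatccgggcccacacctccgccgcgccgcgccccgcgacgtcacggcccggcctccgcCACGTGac
Slc25a36: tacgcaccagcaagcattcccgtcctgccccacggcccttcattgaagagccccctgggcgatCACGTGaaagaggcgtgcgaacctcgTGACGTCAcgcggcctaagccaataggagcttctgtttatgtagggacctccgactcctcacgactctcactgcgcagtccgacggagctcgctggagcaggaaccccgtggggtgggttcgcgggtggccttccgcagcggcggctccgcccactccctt
Both RefSeq starts lie inside the gene spans of the deposited table. The window of Slc25a33 holds an E-box 8 to 3 bases before its start. That of Slc25a36 holds an E-box 187 to 182 bases and a CRE 161 to 154 bases before its start. Of the 46 members 36 have a promoter in the RefSeq table, and 6 of these (16.7%) held an E-box, against 6.04% of 27025 mouse promoters of the same length, and they include Slc25a1 and Slc25a14. The CRE was in 1 member and in 1.6% of all promoters, and the GABP site in 1 member and 2.92%. None of the 36 held the ATF4 composite element, found in 3.53% of all promoters. A match is a description of these letters and not a bound site.

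The cofactor carriers were mostly lower. Slc25a16 (ENSMUSG00000071253.8, GRCm38 chromosome 10, 62920633 to 62946498), linked to coenzyme A in mitochondria, had 10.5, 7.70 and 8.19 CPM in MoS2 libraries and 25.7, 25.7 and 28.7 CPM in PBS libraries. Slc25a32 (ENSMUSG00000022299.9, GRCm38 chromosome 15, 39091231 to 39112716), the folate and FAD carrier, had 10.5, 10.1 and 10.8 CPM in MoS2 libraries and 27.9, 23.9 and 25.1 CPM in PBS libraries. Neither gene overlapped between groups. The log2 fold change was -1.60 ± 0.12 for Slc25a16 (SE, by edgeR, adjusted p = 3.3e-08) and -1.30 ± 0.11 for Slc25a32 (adjusted p = 6.4e-08). Slc25a51, which imports NAD+, had -0.37 ± 0.08 (adjusted p = 0.0010), but -0.08 and no call with the length and GC trend removed (adjusted p = 0.31), and the coenzyme A carrier Slc25a42 had -0.50 ± 0.17 (adjusted p = 0.016) on 175 counts in all MoS2 and 440 in all PBS libraries. The call of Slc25a42 was lost without MoS2 replicate 3 (adjusted p = 0.072) or PBS replicate 3 (adjusted p = 0.060), and its value was 0.04, not called, with that trend removed. On the other side, the peroxisomal carrier Slc25a17, of coenzyme A and related nucleotides, had 0.67 ± 0.08 with TMM, but -0.10 and no call with library totals.

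Iron enters the matrix of most cells through mitoferrin-2, encoded by Slc25a28 (ENSMUSG00000040414.8, GRCm38 chromosome 19, 43663801 to 43674881). It had 109, 102 and 106 CPM in MoS2 libraries and 65.3, 65.4 and 63.3 CPM in PBS libraries. These groups did not overlap and the log2 fold change was 0.71 ± 0.06 (SE, by edgeR, adjusted p = 1.6e-07), but it was -0.07 and not called with library totals (adjusted p = 0.34).

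Members with no transport role, or none established when the groups were drawn up, held no rise. The most abundant per length was Slc25a45 (ENSMUSG00000024818.15, GRCm38 chromosome 19, 5877808 to 5885878), with 13.5, 16.8 and 16.8 CPM in MoS2 libraries and 24.0, 28.6 and 24.8 CPM in PBS libraries. It did not overlap between groups and had a log2 fold change of -0.71 ± 0.11 (SE, by edgeR, adjusted p = 5.4e-05). Slc25a46, an outer membrane protein of mitochondrial fission and lipid homeostasis rather than a carrier, had -0.79 ± 0.11 (adjusted p = 1.2e-05). Slc25a35 had the lowest fold change of the family at -3.35 ± 0.48 (adjusted p = 1.9e-05), on 7 counts in all MoS2 and 131 in all PBS libraries, and 31.3% of its exon bases overlap Rangrf on the opposite strand. Slc25a53 had -0.65 ± 0.22 and Slc25a43 -0.56 ± 0.19, both on few counts, and Slc25a47 at -0.53 ± 0.31 was not called, though it was called lower with library totals at -1.30. The call of Slc25a53 was lost without MoS2 replicate 3 (adjusted p = 0.064) and, at -0.43, with the length and GC trend removed (adjusted p = 0.085), and that of Slc25a43 without MoS2 replicate 1 (adjusted p = 0.052) or replicate 2 (adjusted p = 0.074). Slc25a34 had no count in the MoS2 libraries and 1, 9 and 6 in the PBS libraries and was not tested, and Slc25a54 had none in any library.

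**Figure D4:**
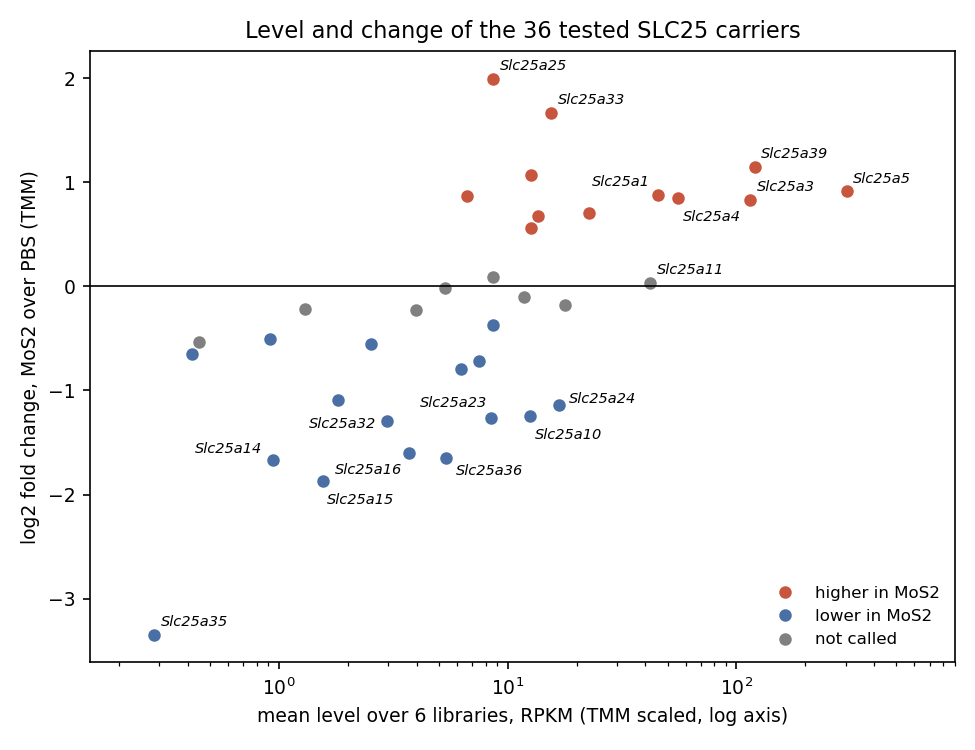
Log2 fold change (MoS2 over PBS, TMM, y axis) against mean level per length over the 6 libraries (RPKM, log axis) for the 36 tested carriers, coloured by call, with 17 of them named. All carriers above 50 RPKM lie above 0, and those below 2 RPKM lie below it. Both axes are computed from the same values, and the sparse Slc25a35 passed the low-count filter through PBS alone. Slc25a14, also sparse, met that filter only with PBS libraries counted. With library totals the points shift down, and among the 12 higher ones 5 remain called.

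Level and change went together among the carriers, though both are computed from the same MoS2 and PBS values. The sparse Slc25a35 had 2, 4 and 1 counts in MoS2 and 43, 51 and 37 in PBS libraries. It passed the low-count filter through PBS alone. Part of the relation may thus be built in, and that part was not tested. Across the 36 members, log2 fold change and mean level per length had a Pearson r of 0.644 and a Spearman rho of 0.683, while all 12972 genes gave 0.353 and 0.375, as a description over genes that share the same libraries. The 12 higher members had a median mean level of 19.1 RPKM and a median gene length of 2802 bases, and the 16 lower members 3.33 RPKM and 5360 bases. Gene length itself had an r of -0.265 with the change among members and -0.225 among all genes. With the length and GC trend removed, the relation to level was an r of 0.595. Of 4 pairs of members that neighbour each other in the genome, 1 had both genes tested, namely Slc25a43 and Slc25a5 on chromosome X, 18448 bases apart, where Slc25a43 was lower and Slc25a5 higher.

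**Figure D5:**
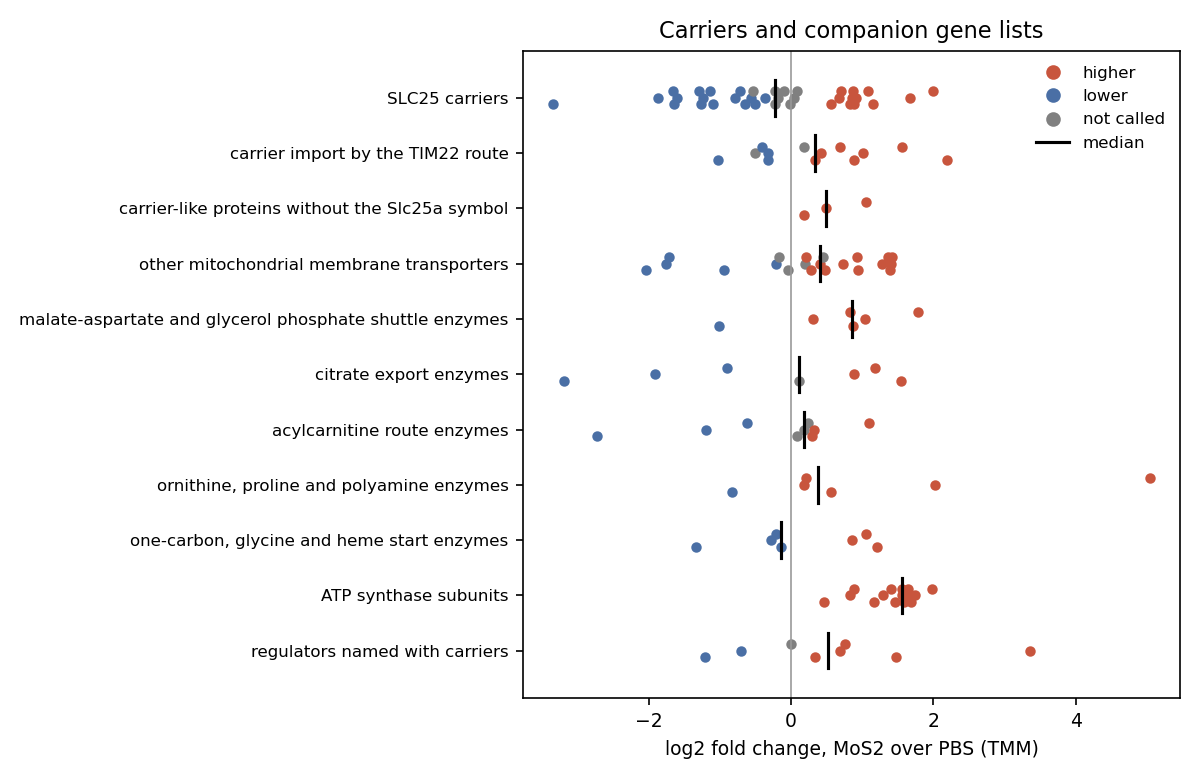
Log2 fold change (MoS2 over PBS, TMM, x axis) of the tested genes of the carriers and of 10 companion lists, 1 row each; points are genes coloured by call and vertical bars are medians. All 15 ATP synthase subunits lie to the right of 0 while the carriers spread to both sides. With library totals 12 of the 15 were called higher and Atp5g3 lower, beside 18.0% higher and 67.7% lower of all genes tested.

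The counts of each companion list stand beside 38.3% of all genes tested called higher and 42.4% called lower with TMM. With library totals those shares were 18.0% and 67.7%. Carrier proteins are brought to the inner membrane by the small TIM chaperones and the TIM22 complex. Of 13 genes of that route, 7 were called higher and 4 lower, at a median log2 fold change of 0.33, or 2 higher and 8 lower with library totals. The smallest adjusted p-values were those of the chaperone gene Timm8b at 2.19 ± 0.09, the receptor gene Tomm20 at 1.55 ± 0.07 and Timm13 at 1.0 ± 0.11, and the last was not called with library totals at 0.23. Carrier-like genes without the family symbol were called higher in 3 of 3 cases, namely Mtch2, an outer membrane insertase, at 1.06 ± 0.07, the uncoupling protein gene Ucp2 at 0.49 ± 0.06 and Mtch1 at 0.18 ± 0.08. With library totals Ucp2 had -0.28 and Mtch1 -0.59 and both were called lower. Of 21 other mitochondrial membrane transporters, 12 were higher and 5 lower, at a median of 0.41, or 6 and 12 with library totals. They were led by Ghitm at 1.39 ± 0.06, the outer membrane channel Vdac1 at 1.27 ± 0.06 and Smdt1, a calcium uniporter subunit, at 1.42 ± 0.09.

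Enzymes that work on the carried substrates or downstream of them moved in both directions. Of 6 shuttle enzymes 5 were higher and 1 lower, with Mdh2 at 1.78 ± 0.07, Got2 at 1.04 ± 0.06 and Gpd1l at -1.01 ± 0.07 (2 and 2 with library totals). Of 7 enzymes around citrate export 3 were higher and 3 lower (2 and 4 with library totals). The fatty acid synthesis genes Fasn and Acaca, which act downstream of citrate export and do not use citrate itself as substrate, had -3.19 ± 0.12 and -1.91 ± 0.09. On the acylcarnitine route 3 of 9 were higher and 3 lower (1 and 7 with library totals), with Cpt1a, which makes acylcarnitines, at -2.73 ± 0.12, Cpt2 at -1.20 ± 0.12 and the dehydrogenase gene Acadl at 1.10 ± 0.07. Around ornithine and proline 5 of 6 were higher and 1 lower (2 and 4 with library totals). Odc1, which makes putrescine from ornithine, had 10201 ± 181 CPM in MoS2 and 309.5 ± 16.9 CPM in PBS cells (SD, n = 3 each), a log2 fold change of 5.04 ± 0.07 (SE, by edgeR, adjusted p = 2.2e-15). Aldh18a1 had 0.56 ± 0.06, or -0.22 with library totals, and Pycr1 -0.83 ± 0.14.

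In the one-carbon and heme list 3 of 7 were higher and 4 lower (1 and 4 with library totals), among them Mthfd2 of mitochondrial folate metabolism at 1.21 ± 0.06, Mthfd2l at 1.05 ± 0.16 and Gcsh of glycine cleavage at 0.86 ± 0.08. With library totals Mthfd2l at 0.28 and Gcsh at 0.08 were not called. ATP synthase, which uses the ADP and phosphate that carriers bring in, had all 15 tested subunit genes higher at a median of 1.56, led by Atp5b, Atp5c1 and Atp5f1 at 1.59 ± 0.06, 1.64 ± 0.06 and 1.56 ± 0.06. Of 8 tested regulators 5 were higher and 2 lower (2 and 4 with library totals). Myc, a transcription factor of growth, had 3.36 ± 0.20, the stress factor gene Atf4 had 1.47 ± 0.07 and Pprc1, a coactivator gene related to PGC-1, had -1.21 ± 0.08. Companion genes were named from the 3 with the smallest adjusted p in each list, at most 0.042 by edgeR.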

How the data were processed

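Per the labels, RNA was extracted with TRIzol and a NEBNext Ultra kit gave the libraries for paired-end Illumina sequencing. The submitters' processing notes name fastp 0.20.0, HISAT2 2.1.0, featureCounts 1.6.1 and the build GRCh38. The authors deposited 1 table of raw read counts per gene with the gene coordinates and the length of each gene as another column. GRCh38 is a human build, but 54349 of the 55401 identifiers occur in mouse GENCODE M21 with the same version and coordinates, so coordinates are given on GRCm38. The sources used here give neither the strand setting nor how reads mapping to several places were counted, so near-identical copies and overlapping genes on opposite strands cannot be told apart. Table columns were matched to samples by their number and their letter (M is MoS2, c is the PBS control).

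The deposited counts of all 6 libraries were fitted with edgeR 4.0.16 (quasi-likelihood F test, limma 3.58.1, R 4.3.3), with the group as the only term, TMM factors and the filterByExpr filter of about 10 counts in 3 libraries. Benjamini-Hochberg adjustment ran over all 12972 genes tested, and genes were called at an adjusted p under 0.05. The fold change sets MoS2 over PBS, with 0.125 as prior count. The SE is approximate, since it was taken as the log2 change divided by the root of F, and it is too small for genes with few counts. CPM and RPKM were computed here from the counts, TMM factors and the deposited length. No 2 libraries of a group agreed within sampling noise (chi-square per degree of freedom 3.16 to 13.5). Near-identical copies were searched with BLAST 2.17.0 (at least 95% identity over 500 bases).

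The members and the companion lists were chosen with earlier results of these data known, so the lists are described by counts and medians with no test. Values per library are given for called members with a log2 change of at least 1 in size and a mean of at least 5 CPM in a group, and for the most abundant member per length of each substrate group. Of each companion list the 3 genes with the smallest adjusted p are named. A few genes that these rules or lists hold are not reported here. Ratios within libraries were tested with exact permutation tests for 2 pairs, and the 5 other ratios were chosen after seeing the data. Promoter sequences are from RefSeq (GRCm38.p6), matched by symbol for 36 of 46 members after those on chromosome 18 were left out. Only the most upstream start of each gene was used. Alternatives were RLE and upper-quartile factors, library totals, other low-count filters, DESeq2 1.42.0, limma-voom, a replicate term, protein-coding genes alone, removal of the length and GC trend, an adjusted p under 0.01, and leaving out each library.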

Additional observations from a re-analysis of the deposited data

How the results depend on the processing

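The number of carriers called higher was 12 in the TMM fit and 12 to 14 under every alternative except library totals, where it was 5. The number called lower was 16 and ran from 13 to 19 elsewhere, but was 25 with library totals. Leaving out each library in turn gave 12 higher every time and 15 to 17 lower, with 10177 to 10634 genes called in all. The median log2 fold change of carriers was -0.22 in the TMM fit, -0.33 to -0.19 without a library, -0.35 with upper-quartile factors, -0.30 with no low-count filter and -0.999 with library totals. It was 0.0417, above 0, with the length and GC trend removed. The cause was not tested, beyond the shift that library totals give to all genes. Among 306 values of single named carriers under alternatives, 297 kept their direction and call, 5 passed the test newly, 2 no longer passed it and 2 changed sign. Those that passed newly were all of Slc25a44. The sign changes were Slc25a28 at -0.0670 with library totals and Slc25a44 at 0.15 with the length and GC trend removed. With library totals Slc25a28 also lost its call, beyond the 2 above. Of the 18 named carriers, 12 were chosen for a called log2 change of at least 1 in size in the TMM fit. Their stability was partly fixed by that choice. The difference of the Slc25a4 to Slc25a5 ratio ran from -0.11 to -0.00222 without a library, and that of Slc25a12 to Slc25a13 from 0.14 to 0.22. Replicate numbers did not pair the samples, with correlations of -0.02, -0.02 and -0.12 between same-numbered libraries. A fit with the replicate block called 12 carriers higher and 16 lower, at a median of -0.23, and 10203 genes in all. In that block the within-number differences of the Slc25a4 and Slc25a12 ratios had the same means, -0.06 and 0.19. Small counts limit Slc25a35, Slc25a14, Slc25a53, Slc25a43 and Slc25a42, and the 10 untested members cannot be read at this depth.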
